A study of Mus musculus with 2 samples.

Results

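The mitochondrial carriers are the proteins that move nucleotides, phosphate, carboxylates, amino acids, cofactors and metal ions through the inner mitochondrial membrane. They were examined here as a set of 52 genes among the 55536 genes of the mm10 annotation, of which 21901 have at least 1 transcript annotated as protein coding. Members were chosen by name: every gene with a protein-coding transcript whose symbol starts with Slc25a (47 genes), together with the uncoupling proteins Ucp1, Ucp2 and Ucp3 and the pyruvate carrier subunits Mpc1 and Mpc2. The name does not fix where a product lies, and not every member is a carrier of the inner mitochondrial membrane. The genes lie on 20 chromosomes, and 4 of them (Slc25a5, Slc25a14, Slc25a43 and Slc25a53) lie on the X chromosome.

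The RNA came from whole gastrocnemius, a large calf muscle, of male 5xFAD/CAST mice 8 to 10 months old, which the labels give as a cross (5xFAD X Cast). 5xFAD mice carry mutant human transgenes, including APP, under a neuronal promoter and serve as a model of amyloid deposition, and CAST mice are an inbred line that goes back to wild castaneus mice. The only group held 2 libraries, biological replicates 1 and 2, each made from 300 ng of total RNA. They are separate biosamples that share a donor entry, and the labels do not say whether more than 1 animal was used. No muscle of another genotype or age was analysed here, so no value can be set down to either. Both libraries were mapped to the mm10 reference, and the effect of CAST alleles on the counts was not tested.

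Most members of the family share a fold of repeated transmembrane segments and exchange a cytosolic solute for a matrix solute. In a working muscle fibre the adenine nucleotide carrier brings ADP in and ATP out, the phosphate carrier brings in phosphate for the ATP synthase, and the malate-aspartate shuttle, built from an aspartate/glutamate carrier and an oxoglutarate carrier, passes reducing equivalents from glycolysis into the matrix. The pyruvate carrier is unrelated in sequence and is formed by a pair of small proteins. Uncoupling proteins belong to the same family as the adenine nucleotide carrier, and Ucp1 is the one that makes heat in brown fat.

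The replicate 1 library summed to 35350142 expected counts and the replicate 2 library to 35580757, and the carriers took 119869 (0.341% of gene counts) and 118346 (0.334%). Levels are given as TPM, a length-scaled abundance, and mean ± SD is over n = 2 libraries throughout, so the SD is itself imprecise. The markers of the labelled tissue were high: all 8 muscle fibre genes passed 1 TPM, with a median of 12416 ± 313 TPM. Those 8 genes summed to 92119 TPM in replicate 1 and 88403 TPM in replicate 2, and markers of other cell types summed to far less. Such sums are levels of chosen RNAs and do not measure how much of each cell type was present. The 7 adipocyte markers summed to 217 and 157 TPM in replicates 1 and 2, the 5 endothelial markers to 48.0 and 33.0 TPM, the 8 leukocyte markers to 45.4 and 40.9 TPM, the 4 fibroblast markers to 235 and 239 TPM, the 4 nerve markers to 17.1 and 12.7 TPM, and the 6 erythroid markers to 370 and 300 TPM. In bulk tissue a lower level can come from fewer cells of a type or from less RNA per cell, and these cannot be told apart.

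The carriers were a family with a very uneven make-up. At least 1 TPM in both libraries was reached by 38 of 52 members, beside 46.0% of all genes with a protein-coding transcript. At least 10 TPM was reached by 17 members (19.1% of those genes) and at least 100 TPM by 6 (2.44%). The median member stood at 5.02 ± 0.113 TPM, against a median of 0.70 TPM over protein-coding genes. Summed TPM of the members was 0.605 ± 0.0014% of all nuclear protein-coding TPM. The 6 most abundant carriers, Slc25a4, Slc25a3, Mpc1, Slc25a12, Mpc2 and Slc25a11, held 86.7 ± 0.281% of the summed carrier TPM. Those 6 kept the same order in both libraries, with the range of each clear of its neighbours. Farther down the order was less certain: of the 51 neighbouring pairs in the order of mean TPM, 18 had ranges that did not overlap.

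**Figure D1:**
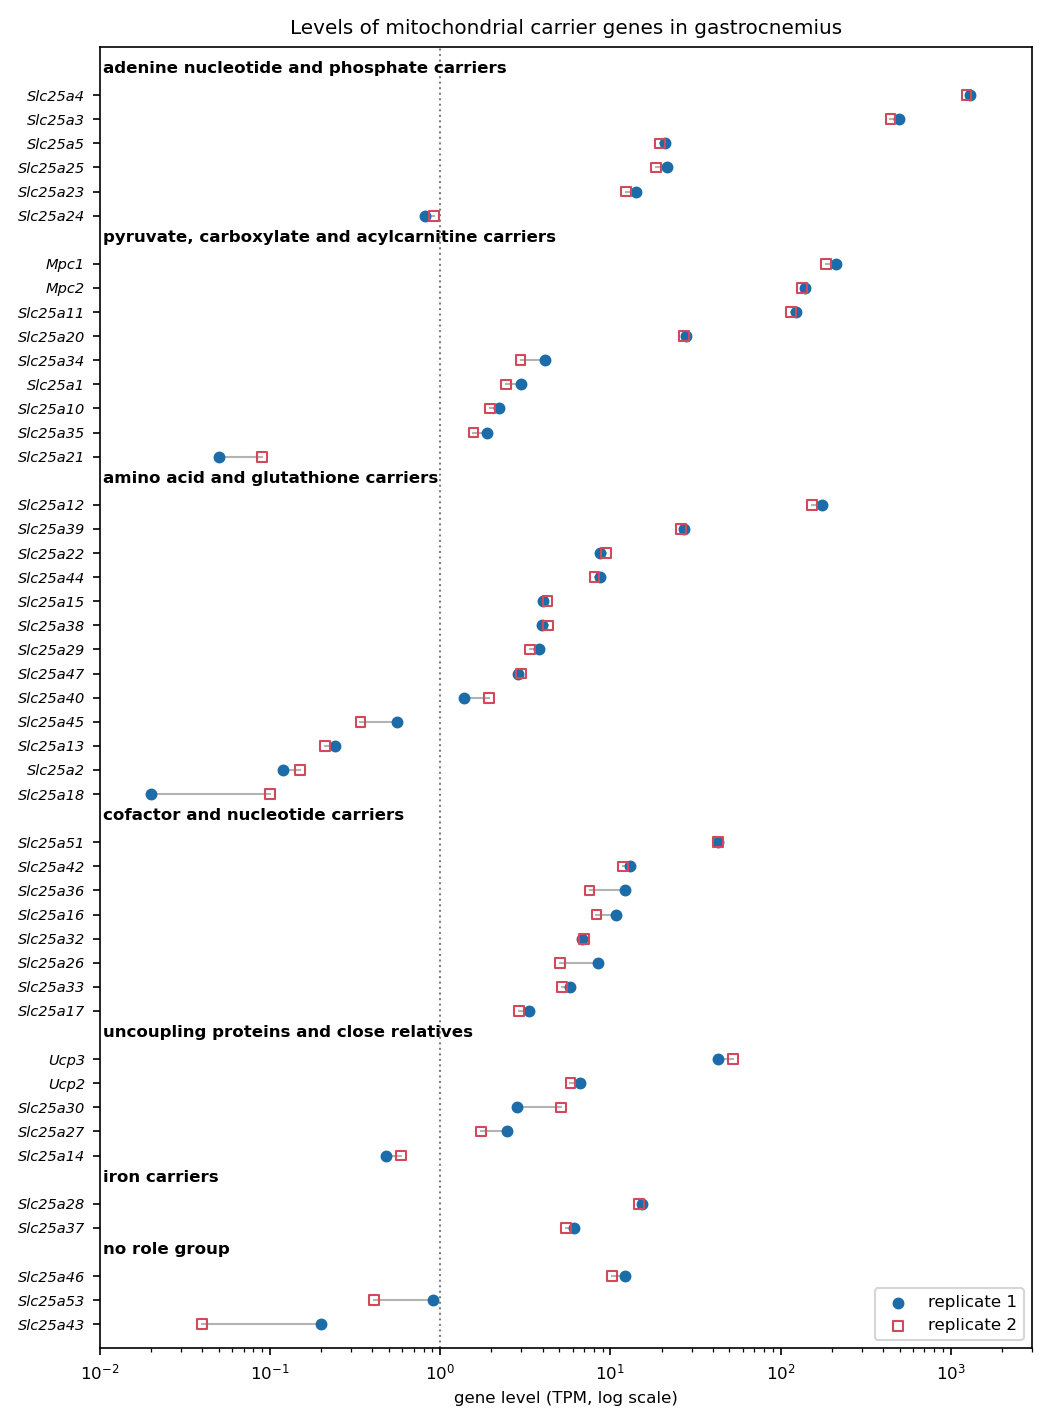
TPM of 46 of the 47 members with any count, on a log axis, grouped by role, with replicate 1 as filled circles and replicate 2 as open squares; the dotted line marks 1 TPM. The other 5 members had 0 counts in both libraries of the RSEM table and are not drawn. Slc25a4 lies at 1295 and 1235 TPM, above every other carrier.

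The adenine nucleotide and phosphate carriers made up 66.0 ± 0.151% of carrier TPM. Slc25a4, the adenine nucleotide carrier of heart and skeletal muscle (ENSMUSG00000031633.4, mm10 chromosome 8 from 46206797 to 46211284, minus strand), had 1295 TPM in replicate 1 and 1235 TPM in replicate 2, from 59819 and 60520 expected counts. Its mean of 1265 ± 42.4 TPM was the 42nd highest among the 21901 genes with a protein-coding transcript. Slc25a4 alone supplied 46.7 ± 0.783% of carrier TPM. Slc25a5, the more widely expressed adenine nucleotide carrier (ENSMUSG00000016319.3, chromosome X from 36795651 to 36798807, plus strand), had 20.9 and 19.5 TPM, 20.2 ± 0.976 TPM on average. The level of Slc25a4 exceeded that of Slc25a5 by 62.0 and 63.3 times in the 2 libraries (62.6 ± 0.928). Slc25a31, the carrier of male germ cells, had 0 counts in both libraries, which allows at most 0.0579 and 0.0545 TPM at a floor of 3 counts per library. Of the 4 germ cell markers, Prm1, Prm2 and Tnp1 were also at 0, and Ddx4 had 1 count in each library.

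The ratio of Slc25a4 to Slc25a5 depends on reads being assigned to the right gene, so the coding sequences of the pair were aligned. Both are 894 bases long and 77.4% identical, and the longest run they share is 20 bases. The pair of windows shown is the stretch of 100 bases inside a single exon where they are most alike, coding bases 202 to 301 in exon 2 of each gene, from GENCODE M21 transcripts on mm10. It lies at chr8:46209319-46209418 on the minus strand for Slc25a4 and at chrX:36796933-36797032 on the plus strand for Slc25a5, and capitals mark the 17 bases at which they differ.
Slc25a4: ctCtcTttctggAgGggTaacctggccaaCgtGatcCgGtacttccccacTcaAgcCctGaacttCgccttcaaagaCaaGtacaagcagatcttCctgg
Slc25a5: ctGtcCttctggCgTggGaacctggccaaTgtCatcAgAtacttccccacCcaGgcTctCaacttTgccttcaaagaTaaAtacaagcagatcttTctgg
Even there 83 of 100 bases were shared and no window of that length had fewer than 5 differences. The posterior SD of the Slc25a4 count, the uncertainty that the deposited tables attach to dividing reads, was 0 in both libraries.

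Slc25a3, the phosphate carrier (ENSMUSG00000061904.12, chromosome 10 from 91116574 to 91124059, minus strand), was the second carrier by level. It had 497 and 442 TPM, a mean of 470 ± 39.2 TPM. Slc25a4 stood 2.70 ± 0.135 times above it. The ATP-Mg/phosphate carriers were far lower: Slc25a25 had 20.1 ± 2.09 TPM, and Slc25a23 had 14.1 and 12.3 TPM. Of the remaining members of that kind, Slc25a24 was at 0.82 and 0.92 TPM, and Slc25a41 had 0 counts in both libraries, although it lies 2056 bases from Slc25a23 on chromosome 17.

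Slc25a3 encodes its muscle and general forms with a choice between neighbouring exons of nearly the same length. The upstream exon, here exon A, is known as the one of heart and skeletal muscle, and the downstream one, exon B, as that of most other tissues. Exon A spans chr10:91122207-91122331 (125 bases) and exon B chr10:91121922-91122043 (122 bases), both on the minus strand of mm10. They are shown 5′ to 3′ because the exon used defines the protein form, with capitals for the 77 of 122 aligned bases (63.1%) that are identical.
Slc25a3 exon A: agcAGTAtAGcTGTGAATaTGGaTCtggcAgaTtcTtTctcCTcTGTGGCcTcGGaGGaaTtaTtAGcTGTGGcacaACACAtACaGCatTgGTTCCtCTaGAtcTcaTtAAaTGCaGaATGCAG
Slc25a3 exon B: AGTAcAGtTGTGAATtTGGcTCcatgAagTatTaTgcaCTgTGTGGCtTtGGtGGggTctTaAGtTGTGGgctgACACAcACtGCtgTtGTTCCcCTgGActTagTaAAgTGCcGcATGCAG
Transcripts with exon A carried most of the phosphate carrier RNA. In the RSEM transcript table the only coding transcript with exon A, Slc25a3-206, had 468 and 413 TPM. Both coding transcripts with exon B, Slc25a3-201 and Slc25a3-203, together had 26.4 and 27.3 TPM. The transcript with exon A thus held 94.7% and 93.8% of coding TPM, 94.2 ± 0.618%. Slc25a3-206 also differs from Slc25a3-201 and Slc25a3-203 at both ends. The values are totals per transcript, and which of these differences the reads fell on was not tested. The kallisto-layout table, a separate quantification of the same libraries, gave the exon A transcript 83.3% and 80.4% (81.9 ± 2.06%). Both tables put the exon A transcript first. They differed by more than the spread between libraries over the share of transcripts with exon B. That share was 5.76 ± 0.618% in the RSEM table and 18.1 ± 2.06% in the kallisto-layout table.

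**Figure D2:**
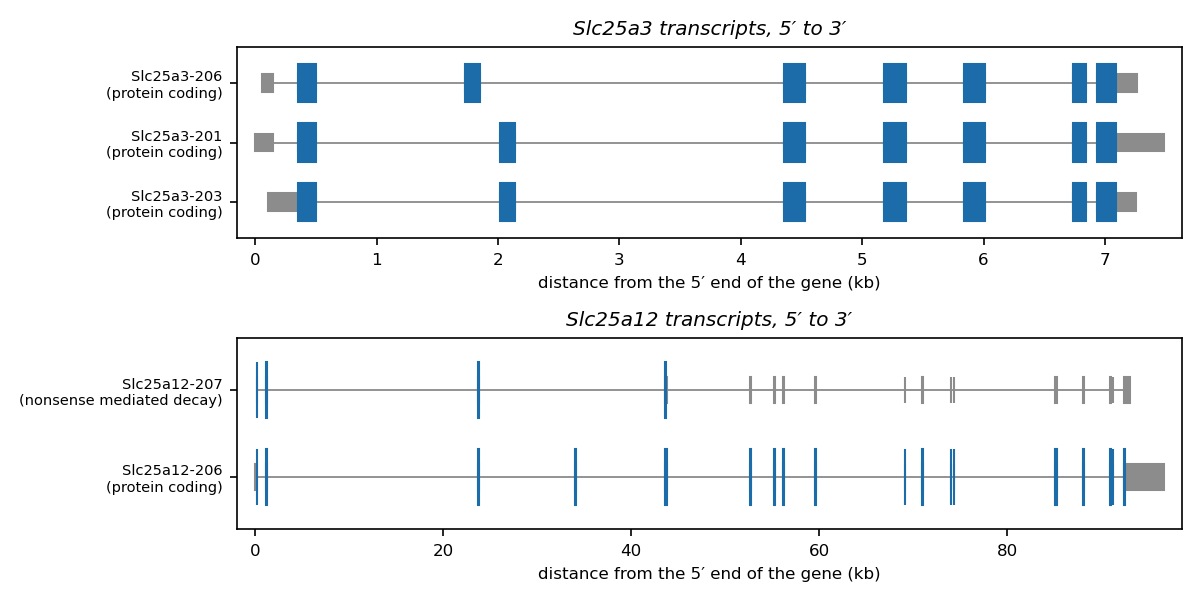
Annotated exons of Slc25a3 and Slc25a12 transcripts by distance from the 5′ end of each gene in kb; wide blue boxes are coding stretches and narrow grey boxes are other exon stretches. Slc25a3-206 differs from the other 2 transcripts at its second coding exon and at both ends. Slc25a12-207 lacks the fourth exon of Slc25a12-206, after which its coding stretch ends.

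Carriers of pyruvate, carboxylates and acylcarnitine supplied 18.1 ± 0.186% of carrier TPM, and 8 of 9 passed 1 TPM. Mpc1 and Mpc2, whose products together form the pyruvate carrier, were at 198 ± 18.2 and 136 ± 4.08 TPM. Mpc2 stood at 0.661 times the level of Mpc1 in replicate 1 and 0.721 times in replicate 2. Slc25a11, the oxoglutarate/malate exchanger, had 123 and 115 TPM (119 ± 5.36). Slc25a20, which brings acylcarnitines in for fatty acid oxidation, had 27.8 and 27.1 TPM (27.5 ± 0.488). Slc25a34 (4.11 and 2.97 TPM), Slc25a1, the citrate carrier (2.99 and 2.44 TPM), Slc25a10, the dicarboxylate carrier (2.22 and 1.97 TPM), and Slc25a35 (1.88 and 1.57 TPM) were low, and Slc25a21 had 2 and 4 counts.

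Reads of Mpc1 were divided with a pseudogene, and the tables divided them differently. Mpc1-ps, a processed pseudogene of 330 bases on chromosome 12, had 575 and 612 expected counts in the RSEM table, 97.8 and 98.0 TPM. It took 11.8% and 12.9% of the counts assigned to the pair. Posterior SDs of the counts were the same for gene and pseudogene, 22.6 in replicate 1 and 20.5 in replicate 2. In the kallisto-layout table the pseudogene had 30.6 TPM in replicate 1 and 0 TPM in replicate 2. Mpc1 itself stood at 247 and 243 TPM there, against 210 and 185 TPM in the RSEM table. Mpc2 differed between tables as well: its coding transcript Mpc2-201 had 93.7 and 85.5 TPM (67.4% and 64.1% of the gene) in the RSEM table. The short non-coding Mpc2-203, of 493 bases, had 44.4 and 46.9 TPM there and 106 and 110 TPM in the kallisto-layout table, where it led the gene. Mpc1 stayed above Mpc2 in both tables, by a margin that depended on the table.

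Amino acid and glutathione carriers supplied 8.31 ± 0.203% of carrier TPM, most of it from a single gene. Slc25a12, the calcium-regulated aspartate/glutamate carrier of muscle and brain (ENSMUSG00000027010.16, chromosome 2 from 71271063 to 71367749, minus strand), had 176 and 152 TPM (164 ± 16.5). Slc25a13, its counterpart best known from liver, had 18 and 17 counts, 0.24 and 0.21 TPM. The ratio of levels was 732 and 725 in the RSEM table and 652 and 544 in the kallisto-layout table, and it averaged 281 on posterior mean TPM, a deposited estimate that includes a prior. Its size rests on those few Slc25a13 counts. Slc25a39, a glutathione carrier, had 27.2 and 26.1 TPM (26.6 ± 0.813). The other 7 carriers of this group that passed 1 TPM had means between 1.66 and 9.04 TPM. Slc25a48 had 0 counts in the RSEM table and 0 and 2 in the kallisto-layout table, and Slc25a45, Slc25a2 and Slc25a18 were under 1 TPM.

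The transcript that led Slc25a12 was not its coding one. Slc25a12-207, annotated as a target of nonsense-mediated decay, the pathway that degrades RNAs with an early stop codon, had 127 and 109 TPM in the RSEM table, 72.3% and 71.5% of the gene. Slc25a12-206, the only coding transcript of the 7 annotated, had 27.8 and 22.8 TPM. The kallisto-layout table gave 96.7 and 85.9 TPM to Slc25a12-207 and 30.2 and 26.5 TPM to Slc25a12-206. The decay-annotated form thus stood above the coding form 4.58 and 4.79 times in the RSEM table and 3.20 and 3.24 times in the kallisto-layout table. Slc25a12-207 lacks exon 4, which spans chr2:71333605-71333720 on the minus strand and is shown, without capitals, as the coding stretch absent from the leading transcript.
Slc25a12 exon 4: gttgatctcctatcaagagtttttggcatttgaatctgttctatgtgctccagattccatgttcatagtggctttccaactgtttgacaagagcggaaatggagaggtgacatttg
Its 116 bases are not a multiple of 3, and the stop codon of Slc25a12-207 falls in the exon that follows. The transcripts also differ at both ends: the last exon has 664 bases in Slc25a12-207 and 4291 in Slc25a12-206, and the first has 21 and 237. The tables give totals per transcript, and which of these differences the reads fell on was not tested.

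**Figure D3:**
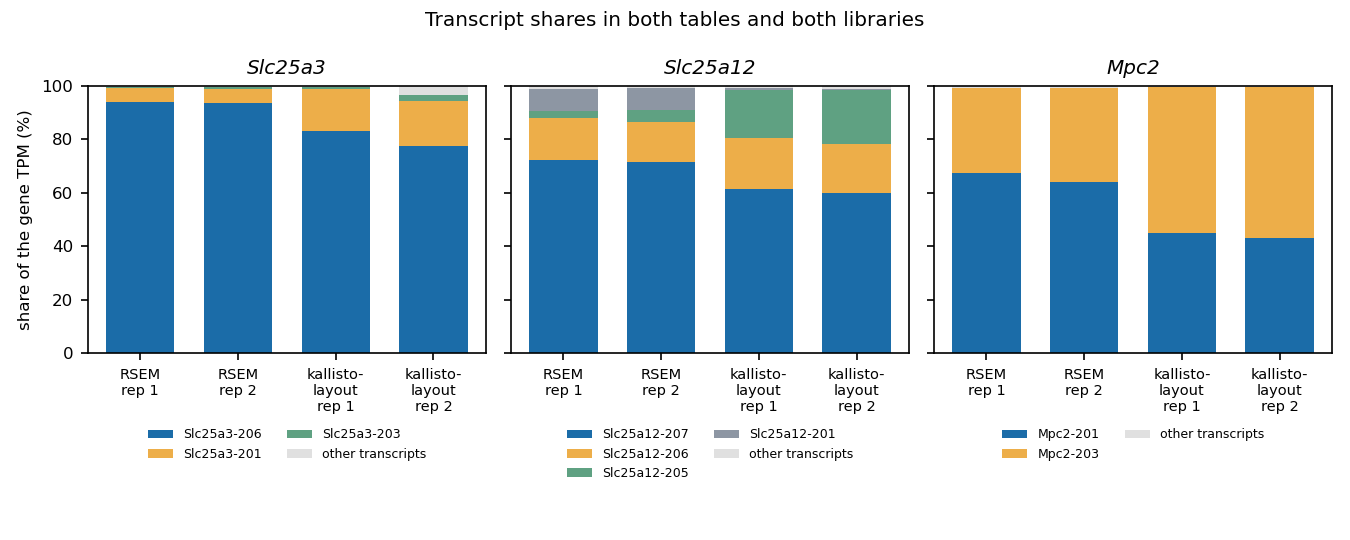
Share of gene TPM by transcript for Slc25a3, Slc25a12 and Mpc2, as stacked bars for each library in the RSEM and the kallisto-layout table. Slc25a3-206 leads Slc25a3 and Slc25a12-207 leads Slc25a12 in all 4 bars, and Mpc2 changes its leading transcript between the tables.

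In the RSEM table Slc25a12 was 1 of 2 carriers at 1 TPM or more with such a leader, a share close to that of all genes. Over the 38 members at 1 TPM or more, the leading RSEM transcript was protein coding in both libraries for 36, beside 91.3% of all genes at that level. The other exception was Slc25a47, at 2.88 and 3 TPM, led by a non-coding transcript in each library. In the kallisto-layout table the count was 33, beside 88.7% of those genes, and 30 members had the same leading transcript in both tables and both libraries, beside 72.9%. Leading transcripts of Slc25a4 (96.7% or more of the gene in every table and library) and Slc25a20 (98.6% or more) left little for others. Slc25a51 was divided among several coding transcripts, of which the highest held 44.4% and 45.4%.

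All 9 cofactor and nucleotide carriers passed 1 TPM, with a group median of 9.15 ± 2.26 TPM, and they supplied 4.17 ± 0.105% of carrier TPM. Slc25a51, which brings NAD into the matrix, led them with 42.9 and 42.9 TPM, a pair of values almost equal. In the group, 7 others, carriers of coenzyme A, folate, S-adenosylmethionine and pyrimidine nucleotides among them, had means from 3.13 TPM (Slc25a17) to 12.5 TPM (Slc25a42).

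Uncoupling proteins were led by Ucp3, the form typical of skeletal muscle (ENSMUSG00000032942.14, chromosome 7 from 100472990 to 100486432, plus strand). It had 42.7 TPM in replicate 1 and 52.3 TPM in replicate 2 (47.5 ± 6.80). Ucp2, the form found in many tissues and in leukocytes, had 6.65 and 5.83 TPM (6.24 ± 0.58), and it begins 6904 bases beyond Ucp3 on the same strand. Ucp3 exceeded Ucp2 by 6.42 and 8.97 times (7.69 ± 1.80), and of the ratios given here this one had the widest relative spread between libraries in the RSEM table. In the kallisto-layout table the ratio was 7.11 and 6.47, so the library in which it was higher depended on the table. Leukocyte markers were present, 7 of 8 at 1 TPM or more, and their part in the Ucp2 level was not tested. Ucp1 had 0 counts in both libraries, which allows at most 0.0764 and 0.0719 TPM. None of the 5 brown or beige adipocyte markers passed 1 TPM in both libraries. They summed to 2.11 and 1.46 TPM, with Ucp1 and Elovl3 at 0, while all 7 general adipocyte markers passed 1 TPM. Among the relatives of the uncoupling proteins, Slc25a30 had 2.82 and 5.14 TPM, Slc25a27 had 2.47 and 1.73 TPM, and Slc25a14 had 0.48 and 0.59 TPM.

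Both mitoferrins, which bring iron in for haem and iron-sulphur clusters, were present. Slc25a28 (mitoferrin 2), the form of most tissues, had 15.4 and 14.7 TPM. Slc25a37 (mitoferrin 1), known from red cell precursors, had 6.08 and 5.49 TPM, 0.385 ± 0.0153 times the level of Slc25a28. Of the erythroid markers, Alas2 was at 2 and 1.5 TPM and Slc4a1 at 0.02 and 0 TPM, beside 135 and 99.8 TPM for Hba-a1, and their part in the Slc25a37 level was not tested. Of the 4 members placed in no role group, Slc25a46, an outer membrane protein of mitochondrial dynamics, had 12.3 and 10.2 TPM. Slc25a53 (0.91 and 0.41 TPM) and Slc25a43 (0.20 and 0.04 TPM) were low, and Slc25a54 had 0 counts. With these the 14 members under 1 TPM are complete: 9 with some counts and 5 with none in the RSEM table.

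The comparison lists of genes that follow had higher medians than the 5.02 TPM of the 52 carriers, 5 of which had 0 counts. The lists hold chosen genes, while the carriers were taken by name, so the sets are not alike. The import machinery that inserts carriers into the inner membrane (8 genes of the TIM22 route) had a median of 18.8 ± 2.63 TPM. Tomm20 was at 43.9 ± 5.11 and Timm10b at 23.8 ± 2.26 TPM. Those 8 genes summed to 153 ± 16.4 TPM, below the 2711 ± 136 TPM of the carriers. The list of 20 enzymes and pores, which also holds Ppif, Mtch1 and Mtch2, had a median of 140 ± 7.91 TPM. It was led by the outer membrane channel Vdac1 (625 ± 49.9 TPM) and the mitochondrial creatine kinase Ckmt2 (483 ± 62.8 TPM). For the 39 listed nuclear subunits of respiratory complexes II to V the median was 352 ± 22.2 TPM. The highest of them were Atp5b at 1400 ± 72.1 TPM and Cox8b at 854 ± 62.2 TPM. Slc25a4 and Slc25a3 lay above the complex II to V median in both libraries, and the other 50 carriers lay below it.

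Replicate 1 and replicate 2 are members of a single group, and their contrast describes spread alone. With 1 library per side there is no test. Ratios were computed from expected counts after TMM scaling for the 34 members with a mean count of at least 100. No member reached 1.5-fold in either direction, beside 1.22% of the 9741 genes at that count, and 6 members passed 1.2-fold, beside 11.8%. Past 1.5-fold lay 1 member with ERCC totals as the scale (1.42% of genes), 2 at a minimum mean count of 10 (8.98%) and 5 with no minimum (33.0%). The median log2 ratio of replicate 1 over replicate 2 was -0.01 over members and 0.00 over genes, and 27 of 34 members lay within 0.2 of 0, beside 80.6% of genes. Members split into 16 above and 18 below 0, beside 49.3% of genes above. Counting error alone, as exact binomial 95% intervals, left 9 of the 34 member ratios clear of 0, beside 24.3% of genes, which does not take in variation between biosamples.

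Ucp3 and Slc25a30 were the carriers lowest in replicate 1. Ucp3 counts were 2478 in replicate 1 and 3255 in replicate 2, which is -0.45 (-0.52 to -0.37) as log2 of replicate 1 over replicate 2. For Slc25a30 the counts were 218 and 300 and the log2 ratio -0.51 (-0.77 to -0.26). Slc25a15, an ornithine carrier, followed at -0.22 (-0.43 to -0.01). Slc25a27 stood at the other end with 162 and 114 counts, or 0.45 (0.10 to 0.81). Slc25a36, a pyrimidine nucleotide carrier, came next with 1021 and 734 counts, or 0.42 (0.29 to 0.56). Slc25a26, the S-adenosylmethionine carrier, was at 319 and 244 counts, or 0.33 (0.09 to 0.58). On the same scale the summed counts of the marker lists had log2 ratios of 0.34 for adipocyte and for endothelial markers, 0.19 for nerve, 0.18 for erythroid, 0.01 for leukocyte, -0.07 for muscle fibre and -0.24 for fibroblast markers. The part of these cell types in the ratios was not tested.

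**Figure D4:**
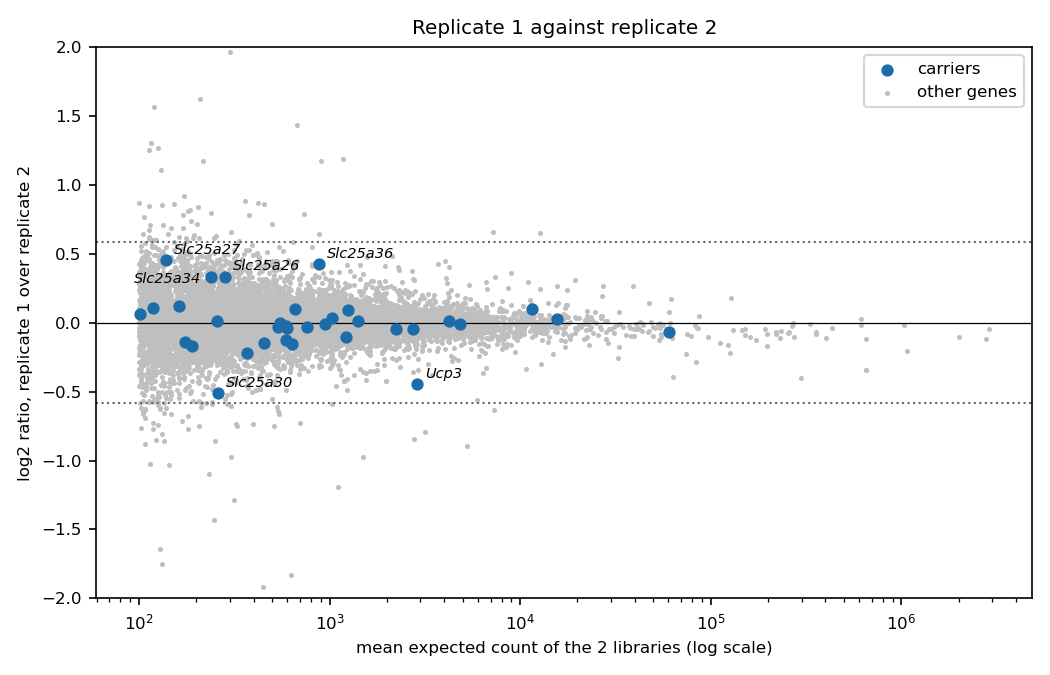
Log2 ratio of replicate 1 over replicate 2 against mean expected count (log axis) for the 34 carriers (large points) and for other genes whose counts averaged 100 or more (small points); dotted lines mark 1.5-fold. Carriers past 1.2-fold are named, all lie between the dotted lines, and 8 other genes fall outside the plotted range of ±2.

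On deposited TPM the median of all genes was itself shifted, to a log2 ratio of 0.13, and that of members to 0.14. There 3 members passed 1.5-fold, beside 4.01% of genes with a pseudocount of 0.1 and 1.51% with 1: Slc25a36 (12.2 and 7.55 TPM), Slc25a26 (8.43 and 5.05 TPM) and Slc25a30. For Slc25a36 the coding Slc25a36-202, of 5227 bases, had 6.73 and 4.53 TPM, and the intron-retaining Slc25a36-205, of 685 bases, had 2.73 and 1.43 TPM. For Slc25a26 and Slc25a30, short transcripts moved with the TPM values. Slc25a26-207, of 376 bases, had 13.2 and 0 counts but 1.86 and 0 TPM, and Slc25a30-204, of 444 bases, had 2.27 and 12.8 counts and 0.26 and 1.37 TPM. In these last cases a few counts on a short transcript made up a larger part of gene TPM than of gene counts. The deposited effective length is the transcript length less 100 bases.

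Levels of the carriers differed little between the gene table and the kallisto-layout table summed per gene, as did those of most genes. Of the 38 members at 1 TPM or more, 0 differed 2-fold in the same direction in both libraries, beside 0.586% of genes, and 30 lay within 1.2-fold in both, beside 72.2% of genes, and 36 within 1.5-fold, beside 94.8% of genes. By the mean of both libraries, the members farthest above the RSEM value were Slc25a1, with log2 ratios of 0.50 and 0.67, and Mpc2, with 0.48 and 0.55. In replicate 1 alone Slc25a40 was farther above it, at 0.64, against 0.03 in replicate 2. Slc25a51 was the farthest below it in each library, at -0.35 and -0.25. Mpc2, at 194 and 195 TPM in the kallisto-layout table, lay above Slc25a12, at 157 and 143 TPM, in both libraries. That order is the reverse of the one in the RSEM table, so the order of this pair depends on the quantification.

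**Figure D5:**
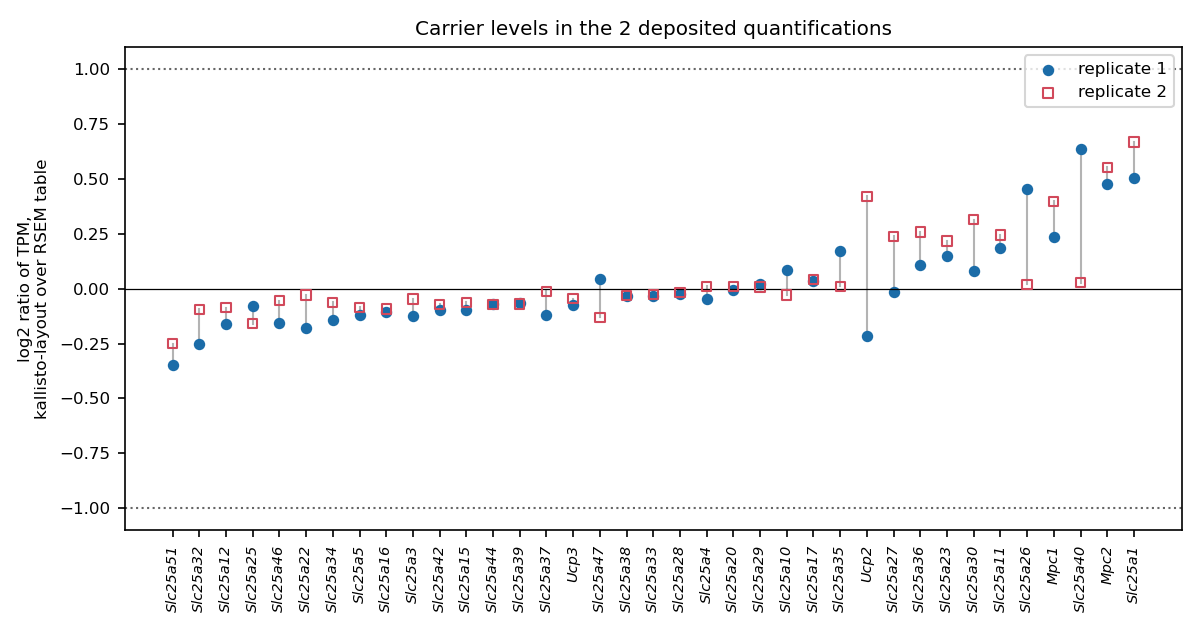
Log2 ratio of TPM in the kallisto-layout table over TPM in the RSEM gene table (pseudocount 0.1) for 37 of the 38 carriers at 1 TPM or more, with replicate 1 as filled circles and replicate 2 as open squares; dotted lines mark 2-fold. Carriers run from left to right by the mean of both ratios, from Slc25a51, at -0.35 and -0.25, to Slc25a1, at 0.50 and 0.67; Slc25a40 is the highest in replicate 1, at 0.64.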

How the data were processed

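Per the labels, total RNA was purified with a column kit, depleted of ribosomal RNA, spiked with ERCC RNAs and made into directional libraries. The authors deposited a gene table and an RSEM-layout transcript table per library, which per the file headers hold expected counts, TPM, posterior SDs of counts and, for transcripts, the percent of the gene's TPM. They also deposited a kallisto-layout transcript table with estimated counts and TPM, summed here per gene. The reference was mm10 with GENCODE M21. The aligner, program versions and strand setting of the counting were not given in the sources used here. The kallisto-layout table lacked 86 of the 55536 genes, which were taken as 0 there.

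The 52 members, their role groups, the lists set beside them and the naming rule were all chosen with earlier results of these data known. The rule names the 12 members of highest mean TPM, the 2 highest of each role group, 14 members with known roles in muscle or as a contrast to it, members at 1.5-fold between replicates, the 3 highest and 3 lowest ratios, members 2-fold apart between tables, members under 1 TPM and the 2 highest genes of each comparison list. Slc25a1, Slc25a10, Slc25a17, Slc25a23, Slc25a29, Slc25a34, Slc25a35, Slc25a40, Slc25a42, Slc25a46, Slc25a47, Slc25a5-ps and Mpc1-ps were named after their values were seen. A member that the rule names is not reported here by itself, and it stays in all counts. Shares and ratios of levels used deposited TPM. For the replicate contrast, expected counts were rounded to integers and scaled by edgeR 4.0.16 TMM factors with a prior of 0.5 counts, and its median ratio took the 43 members with a mean count of at least 10 or the 34 with at least 100. Intervals are exact binomial 95% intervals, and floors are 3 counts per library. Both cover counting error only, since reads are not independent molecules. DESeq2 1.42.0 size factors were an alternative. The ratio step was tested on simulated data. Sequences were read from GENCODE M21 transcripts, placed on mm10 by the GENCODE M21 annotation, with Python 3.11.15 and Biopython 1.88. Other software was scipy 1.17.1, matplotlib 3.10.9, pandas 2.3.3, numpy 2.4.6 and R 4.3.3.

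Reads of the 96 ERCC RNAs (185926 and 168295 counts) and of other rows that are not annotated genes (246 and 222 counts) were left out of library sizes, which left gene totals of 35163970 and 35412240. Overlapping genes may limit some values: by gene span 27 members overlap another annotated gene, 9 of them on the same strand and 20 on the opposite strand.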

Additional observations from a re-analysis of the deposited data

How the results depend on the processing

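No paired analysis was possible because the series holds 1 group. Of 72 alternative values for 15 results, 55 stayed within the limits set and 17 did not. The limits were the spread between libraries for levels and 1.5 times for counts. For the median ratio of replicates the limit was the median half-width of single-member counting intervals, which is not an interval of that median. By it the median on deposited TPM, 0.14 against -0.01, stayed within. The 55 also include single-library values of levels, which lie within 1 SD of the mean by construction. For the kallisto-layout table the values outside the limits were the member share of nuclear protein-coding TPM (0.598%), the Slc25a4 share of carrier TPM (45.1%), Slc25a4 over Slc25a5 (66.4), Slc25a12 over Slc25a13 (598), Mpc2 over Mpc1 (0.793) and the exon A share of Slc25a3 (81.9%). With posterior mean TPM, the deposited estimate that includes a prior, they were the member share (0.601%), Slc25a12 over Slc25a13 (281), Slc25a37 over Slc25a28 (0.404) and the member median (5.20 TPM). With all annotated genes as denominator the member share was 0.273%. Adding the pseudogene's counts to Mpc1, an alternative chosen after seeing the data, gave Mpc2 over Mpc1 as 0.606. The count of members past 1.5-fold between libraries, 0 as reported, was 1 with ERCC totals (Slc25a30), beside 1.42% of genes, 3 on deposited TPM with a pseudocount of 0.1 or of 1, beside 4.01% and 1.51%, 2 with a minimum mean count of 10 (Slc25a53 and Slc25a14), beside 8.98%, and 5 with none, beside 33.0%. The causes were not tested, except that a lower minimum admits members with fewer counts. None of the 6 ratios between members crossed 1 under these settings.

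Each library alone gave 0.604 to 0.606% for the member share, 46.1 to 47.2% for the Slc25a4 share, 62.0 to 63.3 for Slc25a4 over Slc25a5, 2.60 to 2.80 for Slc25a4 over Slc25a3, 725 to 732 for Slc25a12 over Slc25a13, 6.42 to 8.97 for Ucp3 over Ucp2, 0.661 to 0.721 for Mpc2 over Mpc1, 0.374 to 0.396 for Slc25a37 over Slc25a28, 4.94 to 5.10 TPM for the median, 38 members detected in each, 93.8 to 94.7% for exon A, 36 coding leaders in each and 0 members 2-fold apart between tables in each. With 2 libraries a single value lies within 1 SD of the mean by construction, so this says nothing about stability, and the replicate contrast has no value without a library. The posterior SD was at most 1.60% of the count in any member with counts.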

Other observations

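Of the pairs of neighbouring carrier genes given here, the first was close in level and the others differed. Slc25a29, a carrier of basic amino acids (3.58 TPM on average), and Slc25a47 (2.94 TPM) lie 162 bases apart on opposite strands of chromosome 12. Slc25a24 (0.87 TPM) and Slc25a54 (0 TPM) lie 6461 bases apart on chromosome 3, and Slc25a5 (20.2 TPM) and Slc25a43 (0.12 TPM) lie 18448 bases apart on the X chromosome. These pairs were chosen after their values were seen. Several low carriers overlap a higher gene on the opposite strand: Slc25a18 (0.06 TPM) overlaps Atp6v1e1 (55.3 and 53.5 TPM), Slc25a35 overlaps Rangrf (26.5 and 29.1 TPM) and Slc25a26 overlaps Lrig1 (21.8 and 23.1 TPM). These overlaps are between whole gene spans, and whether exons overlap was not tested. Where exons do overlap, reads from the shared stretch cannot be told apart unless the counting used strand. That setting was not given in the sources used here. Slc25a5-ps, a pseudogene of Slc25a5, had 0 and 2 counts.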
